A study of Mus musculus with 26 samples.

Results

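Of the 38540 transcripts counted in single mouse oocytes, 155 carry an Ensembl reference identifier, and these reference transcripts are described here. They were chosen by identifier alone, as every row of the count table that starts with ENSMUST. The other rows carry identifiers of a published transcriptome assembled from oocytes (36694 TCONS, 881 NOMERGE and 810 CUFF). Of the 155, 146 had a gene name in the GENCODE vM21 annotation of GRCm38 and 9 did not. A row stands for 1 reference transcript, and reads from other isoforms of its gene may have been counted in other rows, whose positions were not used here.

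The oocytes were fully grown germinal vesicle (GV) oocytes of wild-type C57Bl6/Babr mice aged 12 weeks, all from 2 mice, called C and D. Each oocyte was staged by Hoechst staining as non-surrounded nucleolus (NSN, no ring of chromatin around the nucleolus), surrounded nucleolus (SN, a full ring) or intermediate (a partial ring). The table holds 9 NSN oocytes (5 of mouse C and 4 of mouse D), 16 SN oocytes (9 and 7) and 1 intermediate oocyte from mouse D. Oocytes of 1 mouse share that mouse, so p-values measure the spread between oocytes of these 2 animals.

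A GV oocyte grows while it is arrested in meiosis and stores messenger RNA for later use. The change from NSN to SN chromatin goes along with the end of transcription, so after it the store is altered by decay of transcripts and by changes of their poly(A) tails. Reference transcripts are gene models annotated from many tissues, whether or not oocytes use them. RNA was captured here by its poly(A) tail, and in these counts fewer molecules and shorter tails cannot be told apart.

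The 3′ ends of reference transcripts are shown because capture starts there. The motif is in capitals within 30 bases of the sense strand of GRCm38, for 5 of the 7 transcripts that differed between the stages. AATAAA and ATTAAA are the usual polyadenylation signals, and TTTTAT and TTTTAAT are forms of the cytoplasmic polyadenylation element, a site through which tails are lengthened in maturing oocytes.
Timm29 ATTAAA (chr9:21595911-21595940, plus strand): taattagtgtgtATTAAAggattttcttat
Timm29 TTTTAAT (chr9:21595897-21595926, plus strand): aattacaaatgTTTTAATtagtgtgtatta
Tusc2 AATAAA (chr9:107566075-107566104, plus strand): ttgttcaatttcAATAAAagttatttgtag
Hmgcll1 AATAAA (chr9:76136317-76136346, plus strand): accataaaatttAATAAAgacttttttagc
Zfp750 AATAAA (chr11:121511015-121511044, minus strand): tgttaatttcccAATAAActcatgtgtgaa
Ss18l2 AATAAA (chr9:121712889-121712918, plus strand): ctgatgacatgtAATAAAtgatacacgtcc

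The search covered the last 100 bases of annotated 3′ ends, on the transcript strand only. AATAAA was present in 25 of the 32 tested reference transcripts with at least that much sequence after the stop codon, beside 57.1% of 40193 protein-coding transcripts of the annotation. Either polyadenylation signal was present in 28 of the 32 and in 70.6% of the annotation. Acaa1a and F8a held neither signal in this window. The cytoplasmic element in either form was found in 4 of the 32 and in 16.98% of the annotation, and of the 7 transcripts that differed it was found in Timm29, in the form TTTTAAT, which 4.78% of the annotation held. TATTTAT, the core of AU-rich elements, and TGTANATA, the Pumilio motif, were not found in these windows of the 7. The polyadenylation signals shown end 15 (Ss18l2), 16 (Hmgcll1), 20 (Tusc2), 42 (Timm29) and 49 bases (Zfp750) before the annotated 3′ end. A match of letters does not show that a site is used.

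Promoter sequence is shown for Timm29 and F8a, which had the smallest adjusted p among transcripts lower and higher in SN oocytes. The sequences are those of RefSeq for GRCm38.p6, with the 250 bases before the start in lower case and the 50 bases from the start in capitals.
Timm29 (chr9:21592472-21592771, plus strand): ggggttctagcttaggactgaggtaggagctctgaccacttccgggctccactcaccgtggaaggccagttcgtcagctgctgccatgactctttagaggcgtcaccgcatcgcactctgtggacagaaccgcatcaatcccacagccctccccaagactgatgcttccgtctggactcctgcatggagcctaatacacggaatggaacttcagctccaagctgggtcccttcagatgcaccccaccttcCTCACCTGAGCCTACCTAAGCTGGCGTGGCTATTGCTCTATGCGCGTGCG
F8a (chrX:73228056-73228355, plus strand): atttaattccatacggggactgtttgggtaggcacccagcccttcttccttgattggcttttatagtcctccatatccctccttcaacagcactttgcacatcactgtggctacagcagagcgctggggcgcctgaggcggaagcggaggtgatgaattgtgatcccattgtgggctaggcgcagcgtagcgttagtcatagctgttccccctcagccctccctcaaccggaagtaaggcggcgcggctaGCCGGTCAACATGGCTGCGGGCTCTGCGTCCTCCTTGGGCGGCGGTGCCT

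The Timm29 window held 13 CpG sites and the F8a window 17, beside a median of 7 over 32851 promoters of the same length. Of the tested reference transcripts, 30 were matched by symbol, and for 26 of them the RefSeq start lay within 250 bases of the annotated one. Their median was 17.5 CpG sites. TATAAA, on either strand, was present in 3 of these 26, among them F8a, beside 13.6% of all promoters in the table. In F8a the match was on the other strand, where the printed sequence reads TTTATA.

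Most reference transcripts were rare or unseen in oocytes. A count was found in any NSN or SN oocyte for 98 of 155 (63.2%), beside 73.4% of all transcripts in the table. Enough counts to be tested, set as at least 3 counts in at least 9 oocytes, were found for 49 (31.6%), beside 43.2% of all. Another 49 had counts below that filter, and 57 had none. With 0 counts, up to 3 counts are allowed, that is 0.822 to 2.21 CPM (counts per 1000000 counts of the oocyte) depending on the oocyte, for counting error only. This limit uses the total counts without scaling, whereas all other CPM values use scaled totals.

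Detection differed by the class of the gene. Of 61 protein-coding genes, 37 could be tested and 8 had no count. Of 51 pseudogenes, 9 could be tested and 23 had no count, and of 28 antisense and lincRNA genes, 2 could be tested and 17 had no count. Of 6 small RNA genes and antigen receptor segments, 5 had no count. Of 75 genes with a predicted (Gm) or RIKEN name, 32 had a count and 7 could be tested. The 8 protein-coding genes without a count include Zscan4b, of a family known for expression in the 2-cell embryo, the olfactory receptor Olfr133 and the tumour antigen Trap1a. All bases of Zscan4b match a transcript of its relative Zscan4e, so its reads cannot be assigned with certainty.

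**Figure D1:**
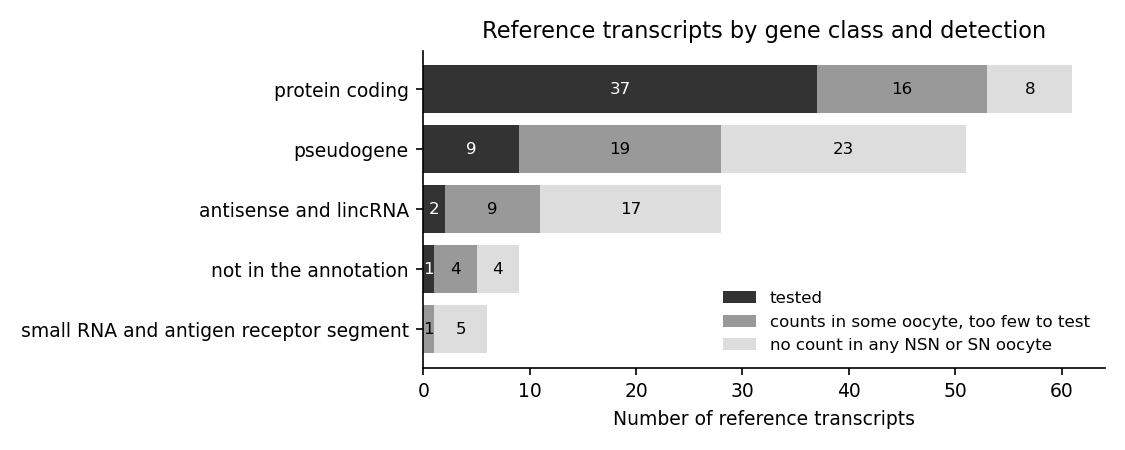
Number of reference transcripts (horizontal axis) in each gene class (rows), split into tested, counted in some oocyte but too rarely to test, and not counted in the 9 NSN and 16 SN oocytes. Of 61 protein-coding transcripts 37 were tested, against 9 of 51 pseudogenes and 2 of 28 antisense and lincRNA transcripts.

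Depth differed between oocytes and went along with how many reference transcripts were seen. An NSN oocyte had between 1886716 and 2983344 counts in total, and an SN oocyte between 1358383 and 3647827. Reference transcripts took 0.168% ± 0.0118 of the counts in NSN oocytes (SD, n = 9) and 0.168% ± 0.0133 in SN oocytes (SD, n = 16). Between 52 and 63 of the 155 had a count in an NSN oocyte (median 58), and between 44 and 66 in an SN oocyte (median 55). With every library drawn down to the smallest total, the ranges were 51 to 57 and 44 to 59. The groups overlapped at both depths.

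**Figure D2:**
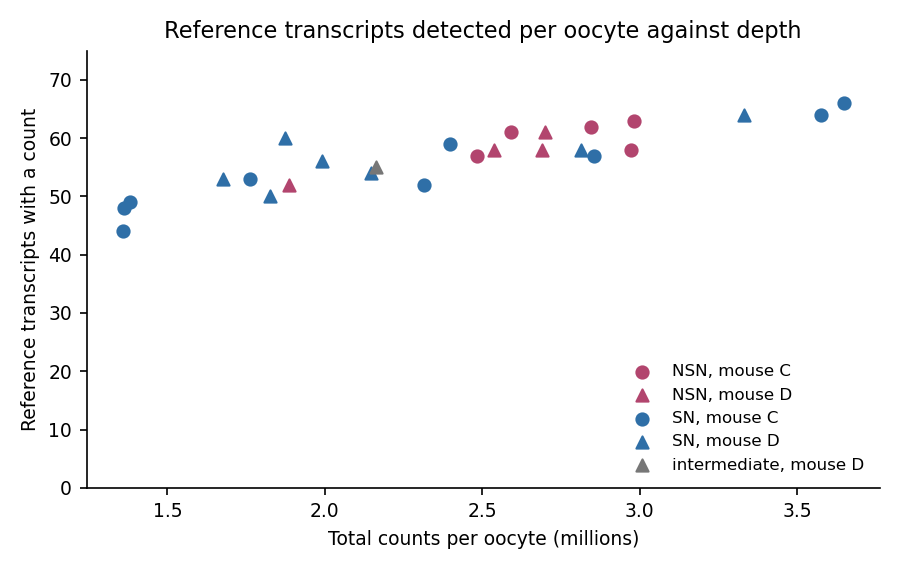
Reference transcripts with at least 1 count in each oocyte (vertical axis) against its total counts (horizontal axis), coloured by stage and with a symbol for each mouse. NSN oocytes lie between 52 and 63 and SN oocytes between 44 and 66, and the lowest values belong to the SN oocytes of lowest depth.

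Few transcripts made up most of the signal. The top 10 by mean CPM held 66.8% of all CPM in reference transcripts, the top 20 held 88.8%, and Psmc5 alone held 16.6%. A mean of at least 10 CPM was reached by 30 members. Among tested members the median level was 12.8 CPM, close to 13.9 CPM over all 16657 tested transcripts. Per kilobase of exon, Psmc5 was highest at 212 CPM per kb, followed by Rps4l at 92.8, Nthl1 at 58.6, Zfp750 at 48.1 and Mtmr7 at 42.4 CPM per kb.

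Psmc5, an ATPase subunit of the proteasome, ranged from 197 to 357 CPM in NSN oocytes (median 268) and from 217 to 381 CPM in SN oocytes (median 274). Its log2 fold change, SN over NSN, was 0.02 (SE 0.106, adjusted p = 0.929, edgeR), and the stages overlapped almost fully. Its neighbour on chromosome 11, Ftsj3, a methyltransferase of ribosomal RNA processing, averaged 124 CPM in NSN and 122 CPM in SN oocytes (log2 fold change -0.02, SE 0.176). The 95% confidence interval of the log2 fold change ran from -0.19 to 0.23 for Psmc5 and from -0.36 to 0.33 for Ftsj3.

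Between the stages, 7 of the 49 tested reference transcripts passed an adjusted p of 0.05 in edgeR's quasi-likelihood test, fitted over all transcripts of the table. This is 14.3%, beside 13.5% of all tested transcripts (2244 of 16657). Of the 7, 3 were lower in SN oocytes (Timm29, Acaa1a and Tusc2), beside 8.07% of all, and 4 were higher (F8a, Hmgcll1, Zfp750 and Ss18l2), beside 5.40% of all. The median log2 fold change of the 49 was -0.01, beside 0.01 over all tested transcripts, with 25 below and 24 above 0. In no member did every SN oocyte lie on 1 side of every NSN oocyte, as was the case for 0.306% (lower) and 0.072% (higher) of all tested transcripts. The share of members called was thus close to the share in the whole table. All 7 were protein coding, as were 37 of the 49 tested, and 0 of the 9 tested pseudogenes and 0 of the 2 tested antisense genes passed the threshold. The median level was 14.7 CPM for tested protein-coding members and 2.21 CPM for tested pseudogenes. With so few members outside the protein-coding class, a difference between classes was not tested. At an unadjusted p under 0.05 in edgeR there were 13 of the 49 (7 lower and 6 higher), beside 4458 of 16657, and among them was 1 pseudogene, Gm7389 (unadjusted p = 0.0497).

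**Figure D3:**
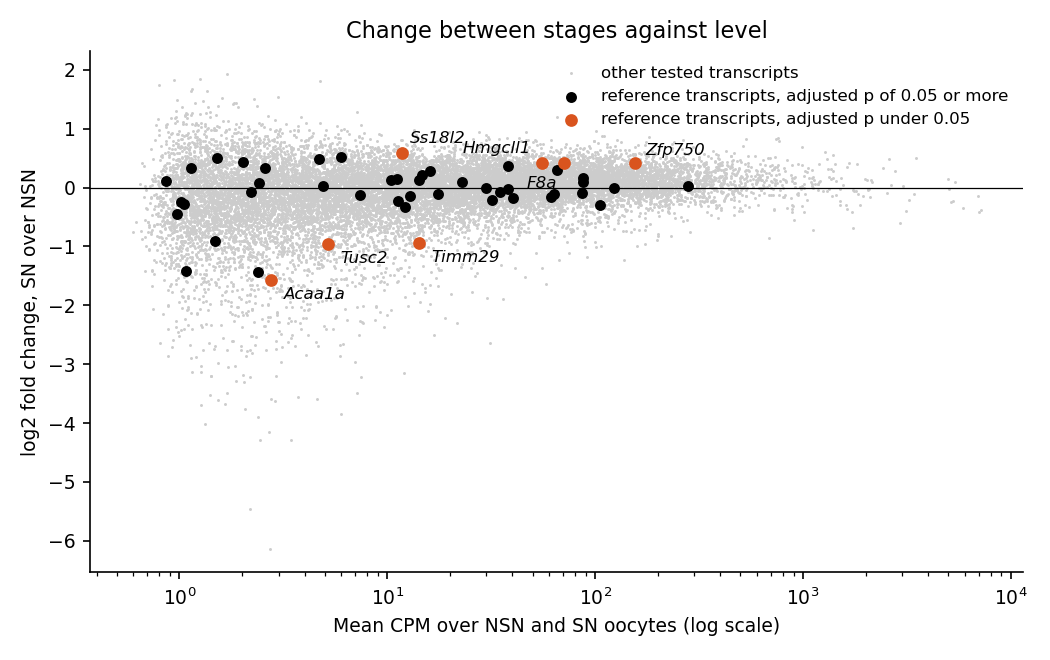
log2 fold change of SN over NSN oocytes (vertical axis) against mean CPM on a log scale (horizontal axis), for tested reference transcripts (black, and orange where the adjusted p was under 0.05) over all other tested transcripts (grey). The 3 falls lie at means of 2.76 to 14.2 CPM, and the 4 rises at 11.7 to 155 CPM.

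Timm29, Acaa1a and Tusc2 fell in SN oocytes. Timm29, a subunit of the TIM22 complex that inserts carrier proteins into the inner mitochondrial membrane, lies at chr9:21592722-21595970 on the plus strand, with 2 exons. It ranged from 14.9 to 28.1 CPM in NSN oocytes (median 21.5) and from 6.33 to 15.6 CPM in SN oocytes (median 9.67). In 14 of 16 SN oocytes it was below every NSN oocyte, and the highest SN values overlapped the lowest NSN values. It fell from 20.7 ± 4.37 (SD, n = 9) to 10.6 ± 3.22 CPM (SD, n = 16), and the fitted log2 fold change was -0.94 (SE 0.164, adjusted p = 0.000133, edgeR). It also passed the threshold within each mouse, with log2 fold changes of -0.83 in mouse C and -1.07 in mouse D (edgeR adjusted p = 0.0307 and 0.0183).

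Acaa1a codes for the thiolase of the last step of peroxisomal fatty acid oxidation and lies at chr9:119341294-119350299 on the plus strand, with 12 exons. It ranged from 0.733 to 9.37 CPM in NSN oocytes (median 5.21) and from 0 to 5.46 CPM in SN oocytes (median 1.56). It had a count in 9 of 9 NSN and in 13 of 16 SN oocytes, and 15 of 16 SN oocytes were below the NSN median. The fall was from 4.87 ± 2.66 to 1.58 ± 1.41 CPM, and the log2 fold change was -1.58 (SE 0.413, adjusted p = 0.00862, edgeR). The highest count in an SN oocyte was 10. Of its bases, 17.4% match its relative Acaa1b at 97% identity or more, and reads from there could have been counted for either gene.

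Tusc2, a mitochondrial protein first described as a tumour suppressor candidate, lies at chr9:107563255-107566112 on the plus strand, with 3 exons. It ranged from 1.99 to 13.2 CPM in NSN oocytes (median 7.38) and from 0.573 to 11.5 CPM in SN oocytes (median 3.17). The groups overlapped over most of the range, with 14 of 16 SN oocytes below the NSN median and 2 below every NSN oocyte. The log2 fold change was -0.97 (SE 0.313, adjusted p = 0.0350, edgeR). With every library drawn down to the smallest total, Tusc2 kept its direction and no longer passed the threshold (-0.83, edgeR adjusted p = 0.131). Of its exon bases, 24.0% overlap Gm9917 on the other strand. No source used here says whether counting used the strand, so reads from Gm9917 cannot be told apart from its own there.

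The 4 transcripts that rose had log2 fold changes between 0.41 and 0.58, and differences among them were not tested. CPM are relative to the counts of each oocyte. A rise in molecules and a loss slower than that of other transcripts therefore cannot be told apart here. F8a, an intronless gene at chrX:73228291-73230795 whose product HAP40 binds huntingtin, ranged from 35.2 to 84.8 CPM in NSN oocytes (median 57.6) and from 53.9 to 92.1 CPM in SN oocytes (median 81.3). In 15 of 16 SN oocytes it was above the NSN median, and the ranges overlapped widely. It rose from 58.3 ± 14.4 to 77.5 ± 11.3 CPM, and the log2 fold change was 0.41 (SE 0.119, adjusted p = 0.0175, edgeR).

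Hmgcll1, an enzyme of the HMG-CoA lyase family outside mitochondria, lies at chr9:76014855-76136350 on the plus strand, with 9 exons. It ranged from 32.7 to 66.6 CPM in NSN oocytes (median 44.4) and from 40.4 to 85.8 CPM in SN oocytes (median 59.3). It was above the NSN median in 15 of 16 SN oocytes, 5 of which were above every NSN oocyte. The log2 fold change was 0.41 (SE 0.126, adjusted p = 0.0256, edgeR).

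Zfp750, a zinc finger transcription factor known from epidermal differentiation and the second most abundant reference transcript, lies at chr11:121510978-121519333 on the minus strand. It ranged from 94.1 to 190 CPM in NSN oocytes (median 119) and from 102 to 244 CPM in SN oocytes (median 166). In 15 of 16 SN oocytes it was above the NSN median, and 6 were above every NSN oocyte. It rose from 128 ± 31.2 to 171 ± 39.0 CPM, and the log2 fold change was 0.42 (SE 0.132, adjusted p = 0.0304, edgeR).

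Ss18l2, a small relative of the chromatin remodelling subunit SS18, lies at chr9:121710329-121712921 on the plus strand. It ranged from 5.997 to 11.8 CPM in NSN oocytes (median 9.49) and from 7.92 to 23.9 CPM in SN oocytes (median 12.4). More than in the other 3, SN oocytes lay outside the NSN range, with 10 of 16 above every NSN oocyte. The log2 fold change was 0.58 (SE 0.185, adjusted p = 0.0328, edgeR). With scaling to library size only, Hmgcll1, Zfp750 and Ss18l2 kept their direction and no longer passed the threshold (edgeR adjusted p = 0.0512, 0.0509 and 0.0543), and F8a was the only rise left. With libraries drawn down to the smallest total, Hmgcll1 and Ss18l2 did not pass either (edgeR adjusted p = 0.0777 and 0.0721), and without a filter on low counts Ss18l2 did not (edgeR adjusted p = 0.0580).

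**Figure D4:**
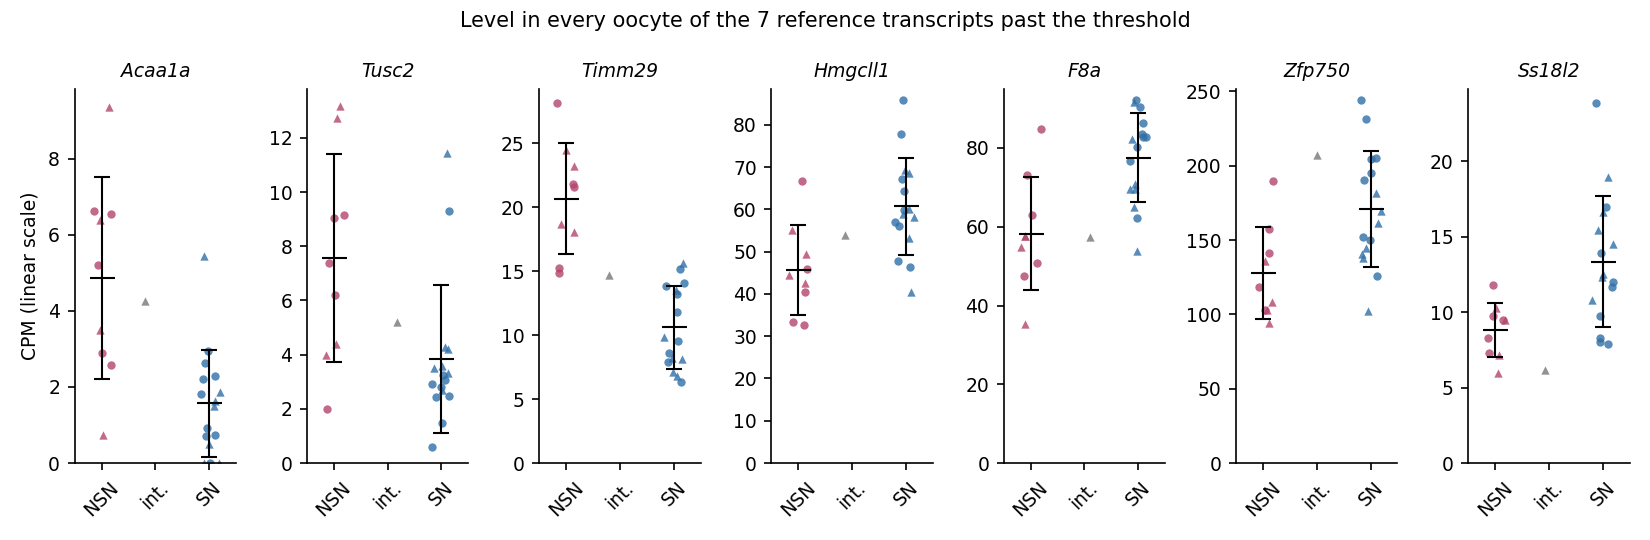
CPM on linear axes from 0 (a separate scale for each panel) in every NSN, intermediate (int.) and SN oocyte for the 7 reference transcripts past the threshold, with circles for mouse C and triangles for mouse D. Black bars give the mean and SD of each stage, and in all 7 panels the NSN and SN points overlap, least for Timm29, where 14 of 16 SN oocytes lie below every NSN oocyte.

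Within mouse C alone and within mouse D alone, all 7 kept their direction, and Timm29 was the only one of them to pass the threshold in each. The single intermediate oocyte had 14.7 CPM of Timm29, 4.27 of Acaa1a, 5.21 of Tusc2, 57.3 of F8a, 54.0 of Hmgcll1, 207 of Zfp750 and 6.16 of Ss18l2. These values were inside the range of the NSN oocytes for 5 of the 7 and inside the range of the SN oocytes for 6 of the 7, so they did not place this oocyte with either stage.

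By position, 5 of the 7 tested reference transcripts of chromosome 9 passed the threshold (Timm29, Acaa1a and Tusc2 lower, Hmgcll1 and Ss18l2 higher), against 2 of 41 elsewhere. This was noticed after the values were seen and carries no test. The positions of the other rows of the table were not used here, so the share called over all tested transcripts of chromosome 9 is not known, and nothing particular to this chromosome can be read from the count. The other tested members of chromosome 9 were Dpagt1, which makes the lipid carrier of N-glycans, at 84.1 ± 21.5 and 89.5 ± 17.98 CPM, and Mthfsl, at 9.79 ± 3.04 and 10.7 ± 3.13 CPM (NSN and SN, SD).

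Mthfsl is the tested protein-coding transcript that matches another gene over all of its bases. It has 5 mismatches to Mthfs, the folate enzyme methenyltetrahydrofolate synthetase, over 801 bases (99.4% identity). A stretch of 60 coding bases of each is shown with the base that differs in capitals, because a read of 150 bases from such a stretch can hold a single difference.
Mthfsl: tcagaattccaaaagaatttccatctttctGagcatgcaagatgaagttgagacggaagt
Mthfs: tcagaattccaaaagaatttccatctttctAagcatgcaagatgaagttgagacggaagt

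The log2 fold change of Mthfsl was 0.13 (SE 0.184, adjusted p = 0.703, edgeR), and its reads cannot be assigned to either gene of the pair with certainty. Of the 48 tested members in the annotation, 11 matched another gene's transcripts over at least 50% of their bases, and 16 had exons overlapping exons of a gene on the other strand. Among them are Rpl14-ps1, a copy of Rpl14, Evi2b, which lies within the Evi2 gene model, and B230398E01Rik, 75.1% of which overlaps Rfx5. None of the 7 that differed between the stages matched another gene over as much as 50% of its bases.

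Among members that did not pass the threshold, the largest differences downward were in rare transcripts. Hsd3b1, an enzyme of steroid hormone synthesis known from theca and luteal cells, ranged from 0.376 to 10.7 CPM in NSN oocytes (median 3.004) and from 0 to 12.3 CPM in SN oocytes (median 0.490). Its log2 fold change was -1.43 (SE 0.607, adjusted p = 0.116, edgeR), and it had a count in 9 of 9 NSN and 9 of 16 SN oocytes. It is the only granulosa, cumulus, theca and luteal marker among the named members. It had 1 to 29 counts in NSN and 0 to 29 counts in SN oocytes. The top of the SN range was a single oocyte, C-9 with 29 counts, and the next highest SN oocyte, D-9, had 7 counts. Among NSN oocytes, C-7 had 29 counts and C-12 had 26. Whether the reads of Hsd3b1 come from the oocyte was not tested.

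ENSMUST00000059673, which is not in the annotation and carries the name Tmcc1 in the study, gave -1.43 on the log2 scale (SE 0.548, adjusted p = 0.0804, edgeR). It ranged from 0.695 to 4.55 CPM in NSN oocytes and from 0 to 2.11 CPM in SN oocytes, with a count in 9 of 9 and 8 of 16. The pseudogene Gm7389 had means of 2.14 and 1.11 CPM (log2 fold change -0.91, adjusted p = 0.186, edgeR). All 3 of these transcripts were at 5 CPM or less on average in both stages, and their ranges overlapped.

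In the other direction, Speer4a, of a testis gene family, had means of 4.76 and 6.71 CPM in NSN and SN oocytes (log2 fold change 0.51, adjusted p = 0.279, edgeR). Msl3l2, a relative of the chromatin protein Msl3, had means of 1.16 and 1.72 CPM (0.51, adjusted p = 0.573, edgeR), and the cell adhesion gene Flrt1 had means of 3.79 and 5.24 CPM (0.49, adjusted p = 0.400, edgeR). Speer4a matches Gm21671 over most of its length, with 81.3% of its bases at 97% identity or more to other genes.

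**Figure D5:**
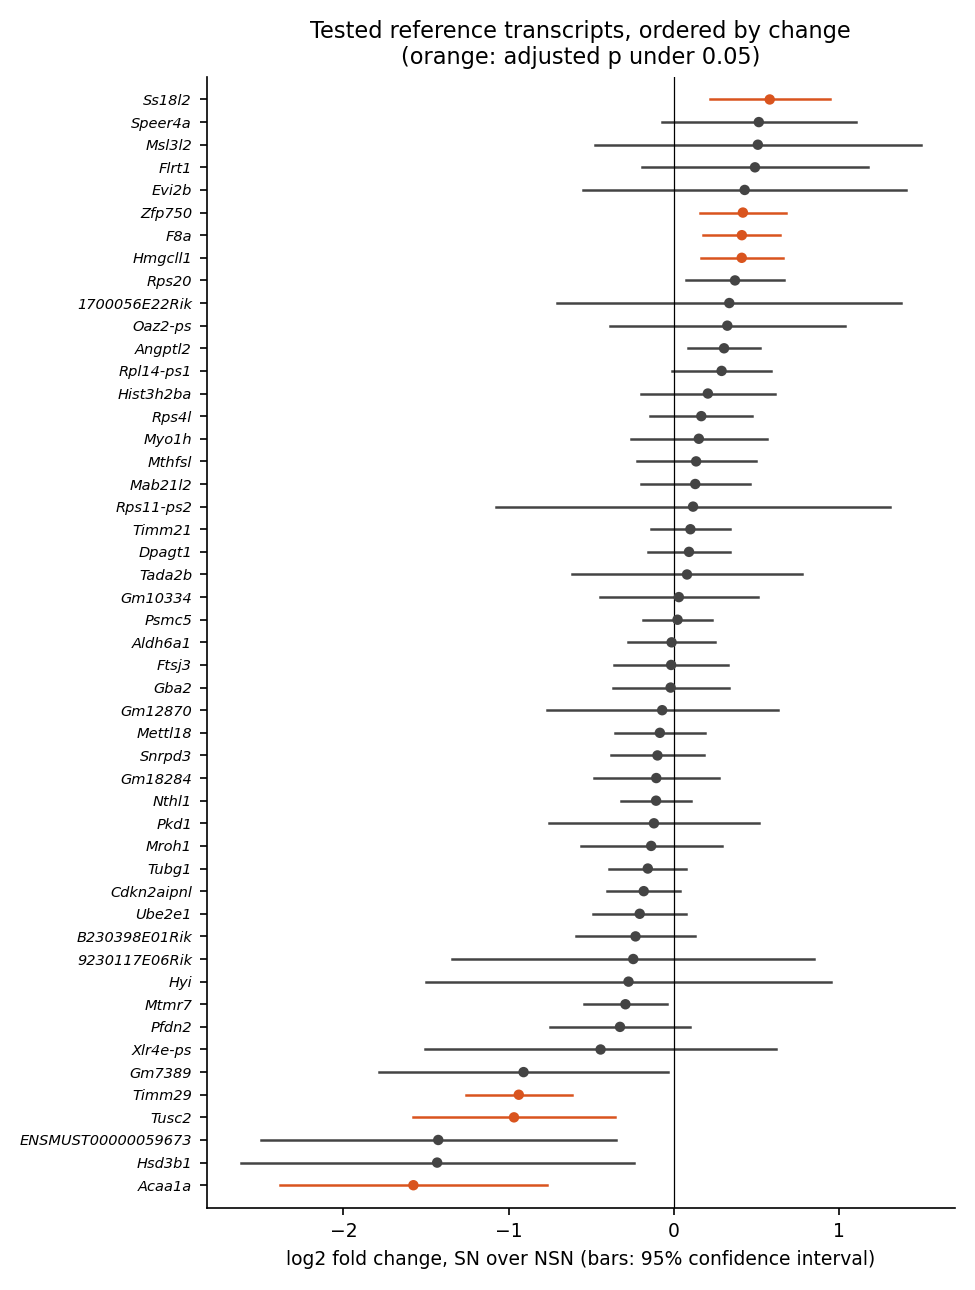
log2 fold change of SN over NSN oocytes (horizontal axis, bars: 95% confidence interval) for each of the 49 tested reference transcripts (rows), in the order of the change, with the 7 past the threshold in orange. The 3 falls past the threshold run from -1.58 to -0.94 and the 4 rises from 0.41 to 0.58, and 25 of 49 lie below 0.

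Of the 10 most abundant reference transcripts, Zfp750 and F8a passed the threshold and the others did not. Mtmr7, a phosphatase of membrane phosphoinositides, ranged from 91.1 to 140 CPM in NSN oocytes (median 122.7) and from 65.6 to 162 CPM in SN oocytes (median 91.3), with 13 of 16 SN oocytes below the NSN median (log2 fold change -0.29, adjusted p = 0.129, edgeR). Angptl2, a secreted angiopoietin-like protein, ranged from 47.8 to 75.3 CPM and from 48.7 to 89.6 CPM (0.30 on the log2 scale, adjusted p = 0.0612, edgeR). Nthl1, a glycosylase of base excision repair, averaged 66.3 ± 11.5 CPM in NSN and 61.5 ± 9.98 CPM in SN oocytes. Snrpd3, a core protein of spliceosomal snRNPs, averaged 90.6 ± 24.1 and 84.5 ± 21.7 CPM.

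By function, the largest list among the members was that of ribosomal protein genes and their copies, with 6 members, of which 5 had a count, 4 were tested and 0 passed the threshold. Their median log2 fold change was 0.23, with Rps4l at 81.2 and 91.1 CPM (NSN and SN means), Rps20 at 31.9 and 41.2 CPM, and Rpl14-ps1 at 13.9 and 17.2 CPM. The named ones are the most abundant of the list. The other tested member had a log2 fold change no higher than that of Rps4l (0.17). Rps20, a protein of the small ribosomal subunit, had an unadjusted p of 0.0201 and an edgeR adjusted p of 0.103. Of the nuclear genes for mitochondrial import, Timm29 fell, whereas Timm21, of the TIM23 complex, averaged 21.8 ± 2.89 and 23.5 ± 4.08 CPM (log2 fold change 0.10, adjusted p = 0.661, edgeR). The difference between these genes was not tested.

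Apart from the 75 genes with a predicted or RIKEN name, a list made by name and not by function, the remaining lists had 3 or fewer members. Of 3 zinc finger genes, Zfp750 was tested and rose, and Zfp988 had counts in 5 of 9 NSN and 8 of 16 SN oocytes. The chaperone subunit Pfdn2 averaged 14.2 ± 4.31 and 11.1 ± 4.75 CPM, the ubiquitin-conjugating enzyme Ube2e1 34.7 ± 6.92 and 30.3 ± 8.37 CPM, the histone H2B gene Hist3h2ba 13.4 ± 5.78 and 15.4 ± 5.31 CPM, and Cdkn2aipnl 43.8 ± 8.06 and 38.5 ± 5.79 CPM in NSN and SN oocytes. None of these passed the threshold, nor did the predicted gene Gm10334 at 4.85 and 4.94 CPM. Ube2e1 overlaps Nkiras1 on the other strand over 51.0% of its exon bases. Members of lists that were too rare to test were Btbd6 (a count in 3 of 9 NSN and 1 of 16 SN oocytes), Hspa9-ps1 (5 of 9 and 9 of 16) and the receptor Gpr171 (1 of 9 and 0 of 16). The lists of oocyte and germ cell genes and of blood, macrophage and endothelial markers had 0 members, so the labelled cell type could not be checked on these transcripts.

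No difference in detection passed the threshold. By Fisher's exact test (two-sided), 0 members differed in the share of oocytes with a count at an adjusted p of 0.05, beside 0.0424% of 28306 transcripts with a count, and 3 did at an unadjusted p under 0.05, beside 3.79% of all. These were Hsd3b1 (exact p = 0.0267), ENSMUST00000059673 (exact p = 0.0218) and Tnfrsf9, a receptor of T cells with counts in 1 of 9 NSN and 9 of 16 SN oocytes and at most 5 counts in any (exact p = 0.0405). A count in every NSN and SN oocyte was found for 36 members. Counts in some NSN but no SN oocyte were found for 7 members, and in some SN but no NSN oocyte for 12, with at most 3 counts in any oocyte. With 16 SN and 9 NSN oocytes these counts are not on an equal footing, and they were not taken over all transcripts. The share of oocytes with a count was higher in NSN for 35 members and higher in SN for 27. Over all 28306 transcripts with a count, the numbers were 10701 and 4955. No member met the rule of a count in at least 7 of 9 NSN and in at most 6 of 16 SN oocytes, which 1.36% of transcripts with a count met, and none met the reverse rule (a count in at least 12 of 16 SN and in at most 3 of 9 NSN oocytes), which 0.0459% met.

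The stage effect was also compared between the mice. In edgeR's test of the interaction of stage and mouse, 0 members passed an adjusted p of 0.05, as did 0% of all tested transcripts, and 4 had an unadjusted p under 0.05, beside 5.97% of all. The smallest p-values were those of Mroh1 (0.00296) and Gm18284 (0.0048), followed by Evi2b (0.0345) and Rps4l (0.0469), each with an edgeR adjusted p of 0.753 or more. Gm18284, a pseudogene whose bases match Tm2d1 over 61.9%, had log2 fold changes of -0.59 within mouse C and 0.46 within mouse D.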

How the data were processed

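RNA of 26 single GV oocytes was captured with oligo-dT, amplified without molecular identifiers and read as 150-base single reads. The authors trimmed the reads with Trim Galore, aligned them to GRCm38 with HISAT2 2.1.0 and SAMtools 1.19.2, and counted them in SeqMonk over an oocyte transcriptome, and they deposited unnormalized read counts for each transcript. Whether counting used the strand is not given in the sources used here, nor why some rows keep Ensembl identifiers. The authors excluded outlying and shallow libraries. A deposited table of their own DESeq2 comparison (fold changes and p-values) was not used, and 0 columns of other samples were present.

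Counts of the whole table were tested with edgeR 4.0.16 in R 4.3.3 (quasi-likelihood, TMM factors, a model of stage alone, 9 NSN against 16 SN oocytes). A transcript needed 3 or more counts in 9 or more oocytes, and p-values were adjusted by Benjamini-Hochberg at 0.05. CPM used TMM-scaled totals, and standard errors came from the quasi-F statistic. Limits drawn from a count of 0 cover counting error only. In a simulation of SN against NSN, edgeR recovered 105 of 105 tested 4-fold changes, with 5 false calls among 16720 transcripts. It used the same dispersion for every transcript and no effect of the mouse. Every called member changed by less than 4-fold, so this result does not tell how often changes of their size are found. Of 156 pairs of oocytes of 1 stage, 0 were identical, and chi-square per degree of freedom was at least 2.36.

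Positions, exons and names came from GENCODE vM21 by transcript identifier, overlaps from bedtools 2.31.1, and similarity from BLAST 2.17.0 (at least 97% identity over 150 bases). Motif and promoter windows were read with Python 3.11.15. Detection was compared with Fisher's exact test. The members, lists and tests were chosen with earlier results of these data known. The transcripts named are all called members, the 10 most abundant, the 3 largest differences in each direction among the others, up to 3 of each function list, and those with an adjusted p under 0.05 for detection or interaction. Members outside this rule are given by counts, except Mthfsl, Zscan4b, Olfr133, Trap1a, Evi2b and Mroh1, which were chosen after their values were seen. Alternatives covered the mouse, scaling, tool, filter, depth and each mouse alone.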

Additional observations from a re-analysis of the deposited data

Results flagged for a closer look

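Of 31 named tested transcripts examined, 3 had an NSN oocyte that stood apart by Dixon's test. This test flags about 1 in 20 groups by chance if values are normally distributed, which low counts need not be. The critical value used was that for 9 values, so the SN oocytes were not screened in this way. ENSMUST00000059673 had 4.55 CPM in NSN oocyte C-12, where the next highest NSN value was 2.62 CPM. Gm7389 had 4.14 CPM in NSN oocyte D-34, next to 2.43 CPM. Msl3l2 had 3.32 CPM in NSN oocyte C-6, next to 1.51 CPM. These are rare transcripts, with at most 11 counts in any NSN oocyte, and none of them passed the threshold between the stages.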

How the results depend on the processing

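The 7 called transcripts kept their direction under every alternative in which they were fitted. All 7 were also called with mouse as a term, with DESeq2 size factors and with DESeq2. No filter gave 6 calls of 98 tested members, beside 9.56% of all, without Ss18l2 (log2 fold change 0.56, edgeR adjusted p = 0.0580). A minimum of 10 counts also gave 6, of 35 tested members, beside 15.8% of all, since Acaa1a was not tested there. Library size only gave 4 calls, 1 of them higher (F8a), and over all transcripts it gave 1570 lower and 592 higher calls in place of 1345 and 899, with a median log2 fold change of -0.04. Drawing libraries down to the smallest total gave 4 calls of 41 tested members, beside 11.9% of all. Of the 4, 2 were higher in SN (F8a and Zfp750). Tusc2 (-0.83, edgeR adjusted p = 0.131), Hmgcll1 and Ss18l2 were not called there. Within mouse C and within mouse D there was 1 call each, 1 lower and 0 higher, namely Timm29, beside 751 and 735 calls over all transcripts, in fits with fewer oocytes. The cause of the changes with scaling and depth was not tested. The median log2 fold change of the tested members stayed between -0.05 and 0.05. Detection gave 0 members past the threshold at 1 count, at 3 counts and after drawing down, with 3, 2 and 4 at an unadjusted p under 0.05 (Fisher's exact test). No paired analysis was possible because each oocyte has its own number, and mouse as a term took that place. In the main analysis 57 members had no count and 49 too few to test. Whether this reflects depth, absence from oocytes or counting of reads in other rows was not tested.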
